A study of Mus musculus with 4 samples.

Results

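The genes described here are 10 genes of the neuronal cytoskeleton, the growing axon and the nerve terminal, chosen by Ensembl gene ID for what their proteins do, with earlier results of these data known. They are Dcx, Stmn2, Tubb3, Nefl, Nefm, Nefh, Prph, Gap43, Snap25 and Uchl1. All 10 IDs were found among the 23879 genes of the table, each with 1 value per array. The samples were whole cochleae, the hearing part of the inner ear, from mouse embryos at embryonic day 15, on the strain background given as 129/Sv and CD-1. The 2 wild-type and the 2 N-myc ko samples each went onto an array of their own. N-myc, encoded by Mycn, belongs to the MYC family of transcription factors and drives growth and division of progenitor cells. Neither the promoter or cell type behind the deletion nor the number of embryos per sample is given in the sources used here. The transcript of Mycn was not analysed here.

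The neurons of the cochlea form the spiral ganglion. They arise from neuroblasts that leave the otic epithelium, stop dividing, and extend one process towards the hair cells and another into the brainstem. Growth of these processes rests on microtubules, which doublecortin and the stathmins act upon in young neurons, while neurofilaments build up in the axon as it matures and set its calibre. Gap43 marks growth cones, and Snap25 is part of the machinery for vesicle fusion at the terminal. A whole cochlea is mostly epithelium and mesenchyme, so transcripts of this kind are read there as a sum over all cells, and fewer neurons cannot be told apart from less RNA per neuron.

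Over all genes, arrays of one group correlated at 0.995 and arrays of different groups at 0.983 to 0.987 (Pearson's r across genes, which are not replicates). A gap of more than 2-fold between replicates was found for 48 genes among the wild-type arrays and for 34 among the N-myc ko arrays. Whether the replicates were separate embryos is not given, so the spread behind the p-values is that between these samples and may be partly technical. The values are the authors' RMA values on a log2 scale, where a difference of 1 is a doubling. The brightness of a probe depends on its sequence, so levels of different genes are not ranked against each other. The table pairs IDs with no names, and lists of glial, hair cell, mesenchymal and other neuronal markers were not analysed here; their part in the results below was not tested.

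Dcx, Stmn2, Uchl1, Nefl and Nefm were lower in N-myc ko than in wild-type cochleae, by 24.8% to 42.4%. The other 5 genes, Tubb3, Nefh, Prph, Gap43 and Snap25, did not pass the test. Of the 10 genes, 5 fell and 0 rose under limma with an adjusted p limit of 0.14, the false discovery rate limit named by the study's design text. In the same fit 34.7% of all genes were called, 14.9% as higher and 19.8% as lower. Significance analysis of microarrays (SAM), the authors' kind of test, called 1 member higher, Prph, beside 25.8% of all genes. It called 6 members lower, beside 32.9% of all genes. At an adjusted p under 0.05, 3 members were lower (Dcx, Uchl1 and Stmn2), beside 8.2% of all genes. Both N-myc ko arrays lay below both wild-type arrays for 6 of the 10 members, the 5 called genes and Tubb3, beside 36.2% of all genes. The groups overlapped for the remaining 4. Among the genes nearest to the members in mean log2 value, described below, both N-myc ko arrays lay below both wild-type arrays for 54.1%, a share near that of the members. The median log2 change was -0.31 over the 10 members and -0.030 over all genes.

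**Figure D1:**
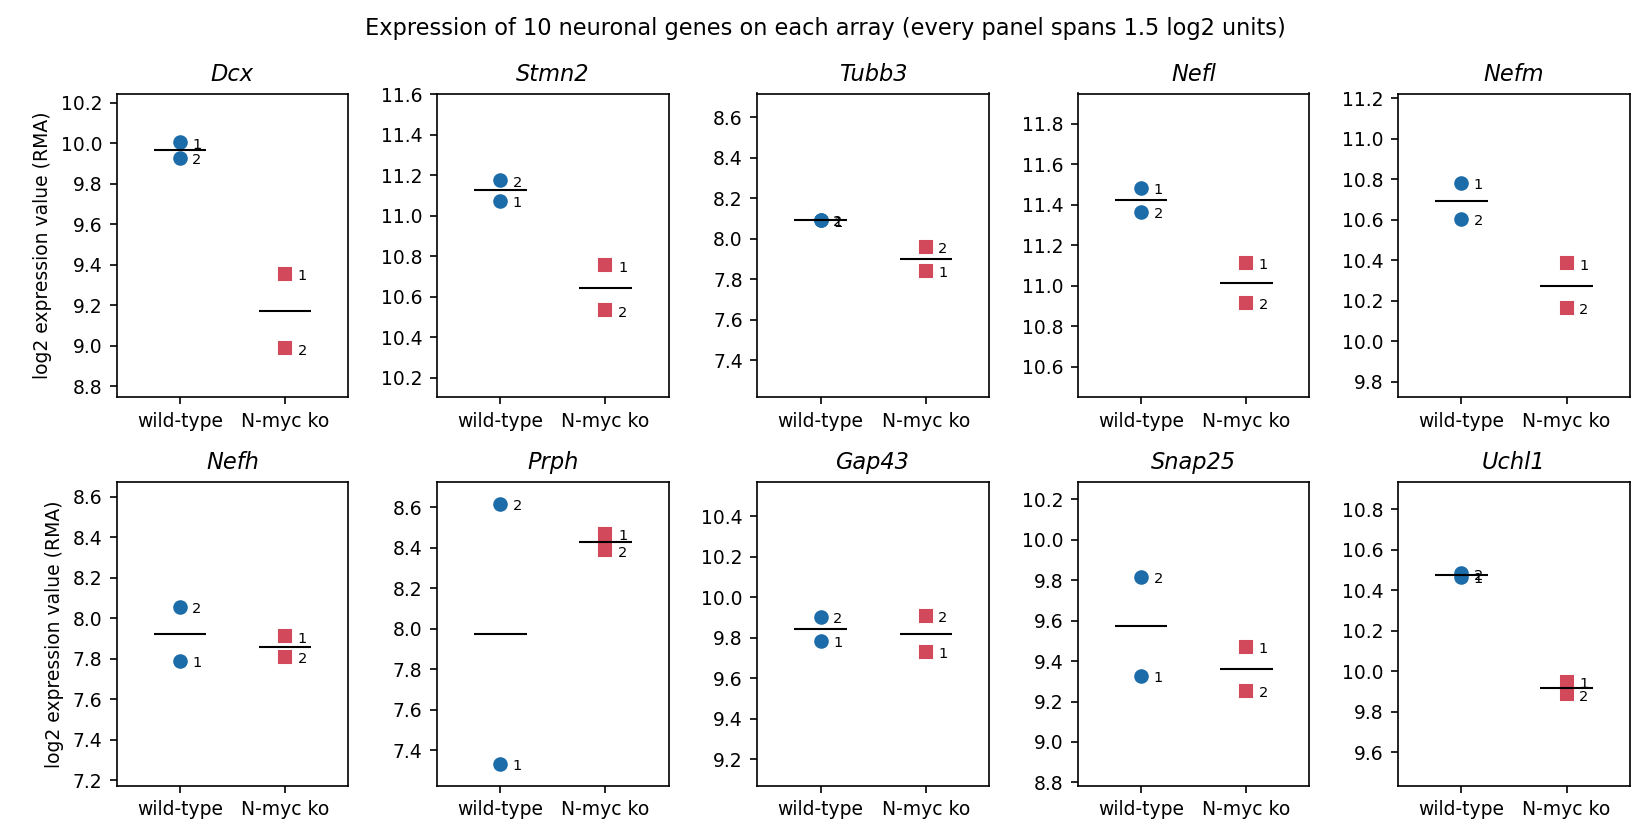
Log2 expression value (y axis) of each of the 10 genes in wild-type (blue circles) and N-myc ko (red squares) cochleae, 2 arrays per group, with the replicate number beside each point and the group mean as a bar; each panel covers the same height on the log2 scale. The N-myc ko points lie below both wild-type points for Dcx, Stmn2, Tubb3, Nefl, Nefm and Uchl1, and the wild-type points of Prph lie 1.29 apart.

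Of the 3 microtubule genes, 2 were called lower, beside 19.8% of all genes, and so few genes do not describe a class. Dcx (ENSMUSG00000031285) encodes doublecortin, a protein that binds and stabilises microtubules in migrating and newly formed neurons. Its log2 value was 10.01 and 9.93 in wild-type replicates 1 and 2, and 9.36 and 8.99 in N-myc ko replicates 1 and 2. The groups were separated by 0.58 between their nearest arrays, more than the 0.37 between the N-myc ko replicates. Dcx fell by 0.80 on the log2 scale, to 0.576 of the wild-type level (SE 0.14, 95% interval -1.13 to -0.46, limma adjusted p = 0.023). This was the widest change of the 10 genes.

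The RefSeq promoter table of GRCm38.p6 held 4 of the 10 genes by symbol, Dcx, Tubb3, Prph and Uchl1, in 5 windows from 250 bases before to 50 bases after a start site. The window of Dcx, which had the widest fall of the members, is printed to show the letters that a motif search covered. It reads 5′ to 3′ on the strand of the gene, at chrX:143933170-143933469 on the minus strand, with the match to a searched motif, TATAAA, in capitals.
Dcx: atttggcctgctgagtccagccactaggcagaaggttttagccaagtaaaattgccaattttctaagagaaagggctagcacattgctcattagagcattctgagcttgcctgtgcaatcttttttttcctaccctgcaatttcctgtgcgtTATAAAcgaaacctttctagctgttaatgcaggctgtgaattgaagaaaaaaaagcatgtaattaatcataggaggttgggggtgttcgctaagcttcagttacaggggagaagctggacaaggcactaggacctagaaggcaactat

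Both strands were searched for CACGTG, the E-box bound by dimers of MYC proteins with MAX, for CAGATG, an E-box of neurogenic bHLH factors such as Neurod1, for the related E-box CAGCTG, and for TATAAA, the TATA box. None of these motifs overlapped another in the windows. The 3 E-boxes had 0 matches in the 5 windows. Of all 32851 promoter windows of this length, 7.15% hold CACGTG, 17.2% hold CAGATG and 16.3% hold CAGCTG. Matches to TATAAA began at -98 from the printed start site of Dcx and at -31 from that of Prph, counting the base before the start site as -1. This sequence is held by 13.6% of all windows. The second Dcx window starts further along and holds the same match, at -193 from its start site. Whether the Dcx match acts as a TATA box was not tested. These matches describe letters in short windows and were not tested for binding. The GC content was 43.0% in the printed Dcx window, 50.7% for Uchl1, 67.3% for Tubb3 and 64.7% for Prph, against a median of 52.7% over all windows.

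Stmn2 (ENSMUSG00000027500) encodes stathmin 2, also called SCG10, a tubulin-binding protein of growth cones that promotes microtubule turnover. The wild-type arrays read 11.07 and 11.17 on the log2 scale and the N-myc ko arrays 10.75 and 10.53. The nearest arrays of the groups were 0.32 apart, and the N-myc ko replicates differed by 0.22. Stmn2 fell by 0.48 on the log2 scale, 28.4% lower (SE 0.11, 95% interval -0.75 to -0.21, limma adjusted p = 0.040).

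Tubb3 (ENSMUSG00000062380) encodes the neuronal beta-tubulin that the antibody TuJ recognises and that serves as a general marker of neurons. It read 8.09 on both wild-type arrays, while the N-myc ko arrays gave log2 values of 7.84 and 7.96. The groups did not overlap, but the difference of -0.19 did not pass the test (95% interval -0.42 to 0.035, limma adjusted p = 0.20). SAM called it lower at a false discovery rate of 0.070. The highest limma adjusted p over the alternatives was 0.71, after quantile normalisation.

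Of the 4 genes for neuronal intermediate filaments, 2 were called lower, again beside 19.8% of all genes and too few to describe a class. Nefl (ENSMUSG00000022055) encodes the light neurofilament subunit, the core on which the filament assembles. Its log2 value was 11.48 and 11.37 in wild-type and 11.11 and 10.92 in N-myc ko cochleae, a fall of 0.41 (24.8% lower, SE 0.11, limma adjusted p = 0.053). Nefm (ENSMUSG00000022054) encodes the medium subunit, which adds a long side arm to the filament. Its log2 value was 10.78 and 10.61 in wild-type and 10.38 and 10.16 in N-myc ko cochleae, a fall of 0.42 (25.2% lower, SE 0.12, limma adjusted p = 0.061). The groups of both genes were separated by little more than the replicates of one group, with 0.25 between the nearest arrays and 0.20 between the N-myc ko replicates for Nefl, and 0.22 and 0.22 for Nefm. Both calls depended on single arrays. Without wild-type replicate 1 the changes were -0.35 and -0.33 (limma adjusted p = 0.17 and 0.20), and without N-myc ko replicate 2 they were -0.31 and -0.31 (limma adjusted p = 0.17 and 0.19). Among the limma alternatives on all arrays, the lowest adjusted p was 0.031 for Nefl and 0.040 for Nefm, with another variance prior. The highest limma adjusted p among them was 0.15 and 0.23, after cyclic loess normalisation. SAM gave false discovery rates of 0.019 for Nefl and 0.022 for Nefm.

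Nefl and Nefm moved together from array to array. The log2 value of Nefl minus that of Nefm was 0.70 and 0.76 in the wild-type replicates, and 0.73 and 0.75 in the mutant ones. This difference thus ranged over 0.059, although Nefl alone ranged over 0.57 and Nefm over 0.62. It was the narrowest range of the 45 pairs of members, and the next, between Stmn2 and Uchl1, was 0.20. Among the 23878 other genes of the table, 19 besides Nefm followed Nefl at least as closely (0.0796%), and 6 besides Nefl followed Nefm at least as closely (0.0251%). The pair was singled out after its values were seen, and with 4 arrays in 2 groups such a range mostly measures a like difference between the groups. In the RefSeq annotation of GRCm38.p6 both genes lie on chromosome 14 with no protein-coding gene between them.

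Nefh (ENSMUSG00000020396), which encodes the heavy subunit and is known to rise last as axons mature, did not pass the test. Log2 values were 7.79 and 8.06 in wild-type and 7.91 and 7.81 in N-myc ko cochleae, so that both N-myc ko arrays lay between the wild-type arrays. The difference was -0.063 (95% interval -0.35 to 0.23, limma adjusted p = 0.74). Its sign depended on the scaling, with 0.063 after quantile normalisation and 0.052 after cyclic loess normalisation, and it was 0.071 without wild-type replicate 2. Nefl minus Nefh was 3.69 and 3.31 in wild-type against 3.20 and 3.11 in N-myc ko cochleae, and Nefm minus Nefh was 2.99 and 2.55 against 2.47 and 2.36. The groups did not overlap in either difference, yet the gap between the wild-type replicates (0.39 and 0.44) was wider than the gap between the groups.

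Prph (ENSMUSG00000023484) encodes peripherin, an intermediate filament protein of peripheral neurons. In the mature cochlea it is known from the type of spiral ganglion neuron that contacts outer hair cells. Wild-type replicates 1 and 2 read 7.33 and 8.62 on the log2 scale, and N-myc ko replicates 1 and 2 read 8.47 and 8.39. The wild-type replicates were 2.44-fold apart, the widest gap of any member and rank 23 among all 23879 genes, while the N-myc ko replicates differed by 0.083. The mean difference of 0.45 did not pass the test (95% interval -0.45 to 1.36, limma adjusted p = 0.42). One wild-type array decided both its size and its sign. Without wild-type replicate 1 the change was -0.19 (limma adjusted p = 0.37). Without wild-type replicate 2 it was 1.10 and called as a rise (limma adjusted p = 0.034, the lowest over the alternatives, whose highest was 0.65). SAM on all arrays also called the rise, at a false discovery rate of 0.12. On wild-type replicate 1, Nefl and Nefm had their highest values of the 4 arrays, and Prph and Nefh their lowest. For Nefh that value, 7.79, was close to the 7.81 on N-myc ko replicate 2.

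**Figure D2:**
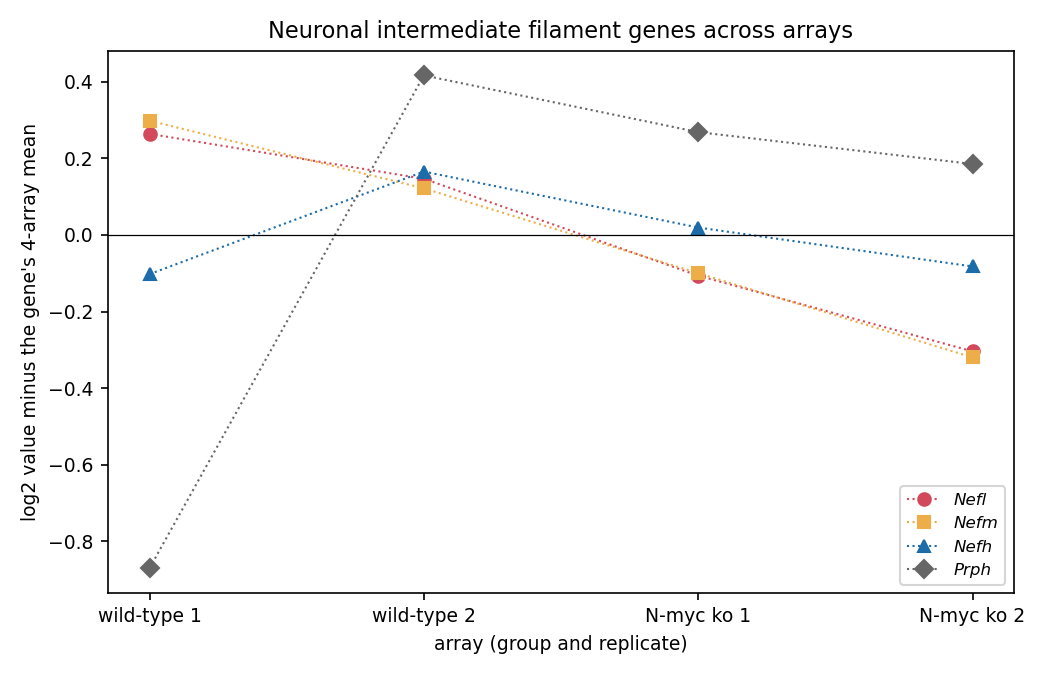
Log2 value of each intermediate filament gene minus its own mean over the 4 arrays (y axis), for each array (x axis); the dotted lines only link the points of a gene, since arrays have no order. The difference between Nefl and Nefm ranges over 0.059, Nefh varies less than either, and Prph stands apart on wild-type replicate 1.

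Uchl1 (ENSMUSG00000029223) encodes a ubiquitin hydrolase, PGP9.5, which is abundant in the cell body and axon of neurons and widely used to stain them. Its log2 value was 10.47 and 10.48 in wild-type and 9.95 and 9.89 in N-myc ko cochleae. The replicates of a group were no more than 0.062 apart, and the groups were 0.52 apart. Uchl1 fell by 0.56 on the log2 scale, 32.1% lower (SE 0.090, 95% interval -0.78 to -0.34, limma adjusted p = 0.021).

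The promoter window of Uchl1, which had the lowest p of the members, lies at chr5:66675871-66676170 on the plus strand of GRCm38.p6 in the RefSeq table. It held no match to the motifs searched in that of Dcx and is therefore printed without capitals, 5′ to 3′.
Uchl1: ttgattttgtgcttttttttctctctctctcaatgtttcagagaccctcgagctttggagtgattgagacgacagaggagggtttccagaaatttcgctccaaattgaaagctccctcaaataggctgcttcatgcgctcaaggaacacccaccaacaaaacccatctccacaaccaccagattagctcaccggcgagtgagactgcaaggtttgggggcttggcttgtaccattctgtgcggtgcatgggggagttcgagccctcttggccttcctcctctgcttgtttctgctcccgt

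Gap43 (ENSMUSG00000047261), the growth cone protein of extending and regenerating axons, did not pass the test. Log2 values were 9.79 and 9.90 in wild-type and 9.73 and 9.91 in N-myc ko cochleae, and the N-myc ko arrays spanned the range of the wild-type arrays. The difference was -0.025 with a 95% interval from -0.28 to 0.23 (limma adjusted p = 0.89), so a fall as wide as that of Dcx or Uchl1 lay outside the interval. The sign was not stable, at 0.14 after quantile normalisation, 0.15 after cyclic loess normalisation, 0.030 after centring on the median, and 0.034 and 0.065 without wild-type replicate 2 and N-myc ko replicate 1.

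Snap25 (ENSMUSG00000027273) encodes a membrane protein of the nerve terminal that joins in the SNARE complex. Log2 values of 9.33 and 9.82 in wild-type and of 9.47 and 9.25 in N-myc ko cochleae were measured, with N-myc ko replicate 1 between the wild-type arrays. The difference was -0.21 (95% interval -0.63 to 0.21, limma adjusted p = 0.43). The wild-type replicates were 0.49 apart, wider than this difference. Without wild-type replicate 1 the change was -0.46 and called (limma adjusted p = 0.12, the lowest over the alternatives, whose highest was 0.96), and without wild-type replicate 2 it was 0.035.

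Differences between members within an array were compared as values and not tested. Dcx minus Gap43 was 0.22 and 0.027 in wild-type against -0.37 and -0.92 in N-myc ko cochleae. Gap43 minus Uchl1 was -0.68 and -0.58 in wild-type and -0.22 and 0.023 in N-myc ko cochleae. Both pairs were picked after the values were seen. Neither difference overlapped between the groups, which held for 29 of the 45 pairs of members. These pairs share the same genes, and the share among pairs of other genes was not computed, so the count has no baseline. Stmn2 minus Uchl1 overlapped between the groups, at 0.61 and 0.69 against 0.81 and 0.65.

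In these data the change went with brightness, but not in one direction. The median log2 change was 0.18 for genes with mean log2 values of 5.5 to 6, -0.21 for those of 8.5 to 9 and 0.0032 for those of 12 to 12.5. Each member was therefore set beside the 500 genes nearest to it in mean log2 value over the 4 arrays. All 10 members lay above the table's median of 7.52. The median change of the neighbouring genes was below 0 for every member, from -0.21 around Prph to -0.082 around Nefl. Of these neighbours, 4618 genes in all, 30.1% were called lower and 5.63% higher, and for 54.1% both N-myc ko arrays lay below both wild-type arrays. The called members had mean log2 values from 9.57 to 11.22 and the others from 7.89 to 9.83.

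Dcx was lower than its 500 neighbours' median by 0.60 on the log2 scale, with a relative change of -0.60, and 8 of the 500 had a lower change. The relative change of Uchl1 was -0.43, with 9 of 500 lower. For Stmn2 it was -0.38, with 16 of 500 lower, for Nefl -0.33, with 22 lower, and for Nefm -0.30, with 33 lower. The fall of these genes was therefore wider than the median shift of genes of their brightness by these amounts, which carry no test.

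The relative change of Tubb3 was -0.031, at the 46.0 percentile of its neighbours. That of Snap25 was -0.0081, at the 48.4 percentile, but it was -0.25 without wild-type replicate 1 and 0.21 without wild-type replicate 2. Nefh stood 0.070 above its neighbours' median and Gap43 0.13 above, at the 58.8 and 75.8 percentiles. Prph stood 0.66 above, at the 96.2 percentile, and this value was 0.044 without wild-type replicate 1 and 1.24 without wild-type replicate 2. The median relative change over the 10 members was -0.16. Without N-myc ko replicate 2 the relative changes were -0.38 for Dcx, -0.36 for Uchl1, -0.24 for Stmn2, -0.21 for Nefl and -0.15 for Nefm, and without N-myc ko replicate 1 that of Nefm was -0.45.

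**Figure D3:**
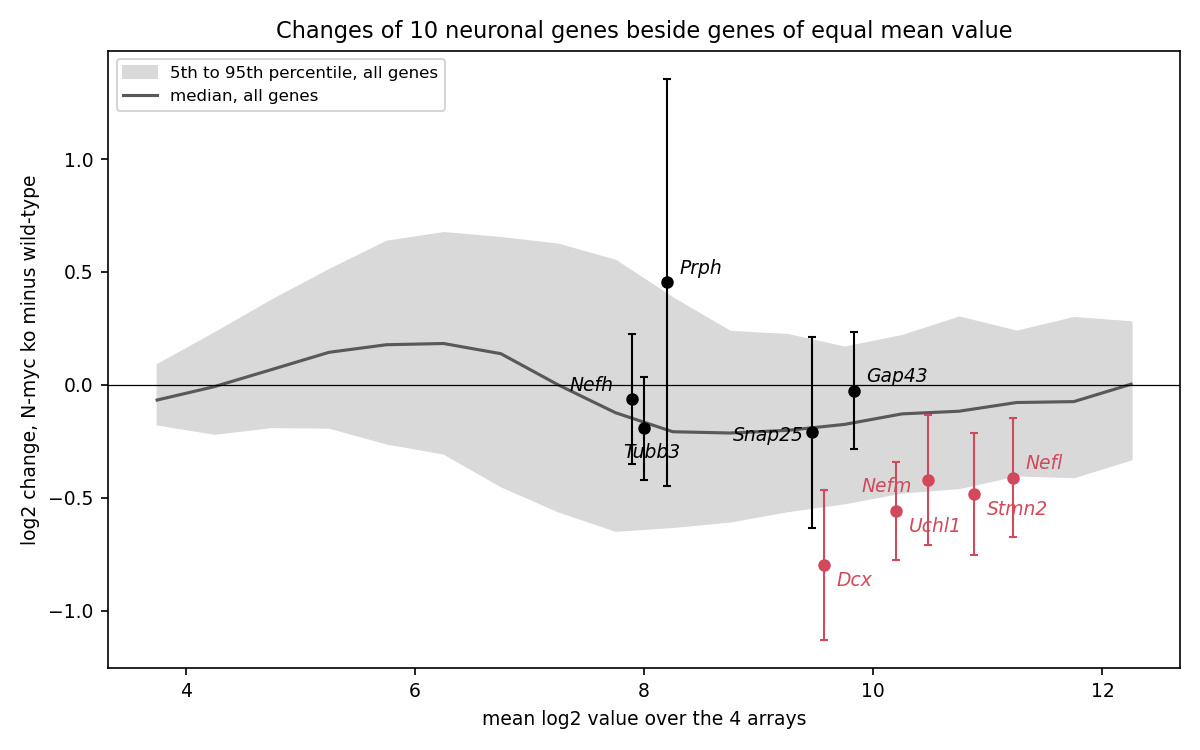
Log2 change, N-myc ko minus wild-type (y axis), against the mean log2 value over the 4 arrays (x axis). Points are the 10 genes with their 95% limma intervals, red where called lower; the grey line and band are the median and the 5th to 95th percentiles of all genes in steps of 0.5. Dcx, Uchl1 and Stmn2 lie below the band, Nefl lies just below its lower edge and Nefm inside it, and Tubb3 and Snap25 lie near the line. Prph lies above the band, with an interval that reaches across it.

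After quantile normalisation of the deposited values, which gives the 4 arrays one distribution, 4 members were called lower (Dcx, Stmn2, Nefl and Uchl1), beside 10.1% of all genes. The limma adjusted p was then 0.067 for Dcx, 0.10 for Stmn2, 0.13 for Nefl and 0.052 for Uchl1, so that none passed the stricter limit of 0.05. Nefm was no longer called (-0.30, limma adjusted p = 0.20). The changes of Dcx, Stmn2 and Uchl1 stayed called and below 0 under each of the 13 alternatives, including the fits that left out 1 array. Their log2 changes ranged from -0.98 to -0.61 for Dcx, from -0.59 to -0.37 for Stmn2 and from -0.59 to -0.40 for Uchl1. On all arrays, their limma adjusted p was highest after cyclic loess normalisation, at 0.072 for Dcx, 0.12 for Stmn2 and 0.057 for Uchl1. Stmn2 thus came closest of these genes to losing its call.

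The N-myc ko replicates were not equally far from wild-type. N-myc ko replicate 2 was lower than replicate 1 for 8 of the 10 members, including all 5 called ones, with a median difference of -0.15. Among the neighbours of equal mean value 33.8% were lower on replicate 2, with a median difference of 0.057, and among all genes 49.4% were lower. Gap43 and Tubb3 were the members that were higher on replicate 2, by 0.18 and 0.12. The wild-type replicates were uneven too, with replicate 2 lower than replicate 1 for 3 of the 10 members. Leaving out N-myc ko replicate 2 lowered the count of members called lower from 5 to 3, beside 14.7% of all genes. Without N-myc ko replicate 1 the count was 5, beside 7.18% of all genes.

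**Figure D4:**
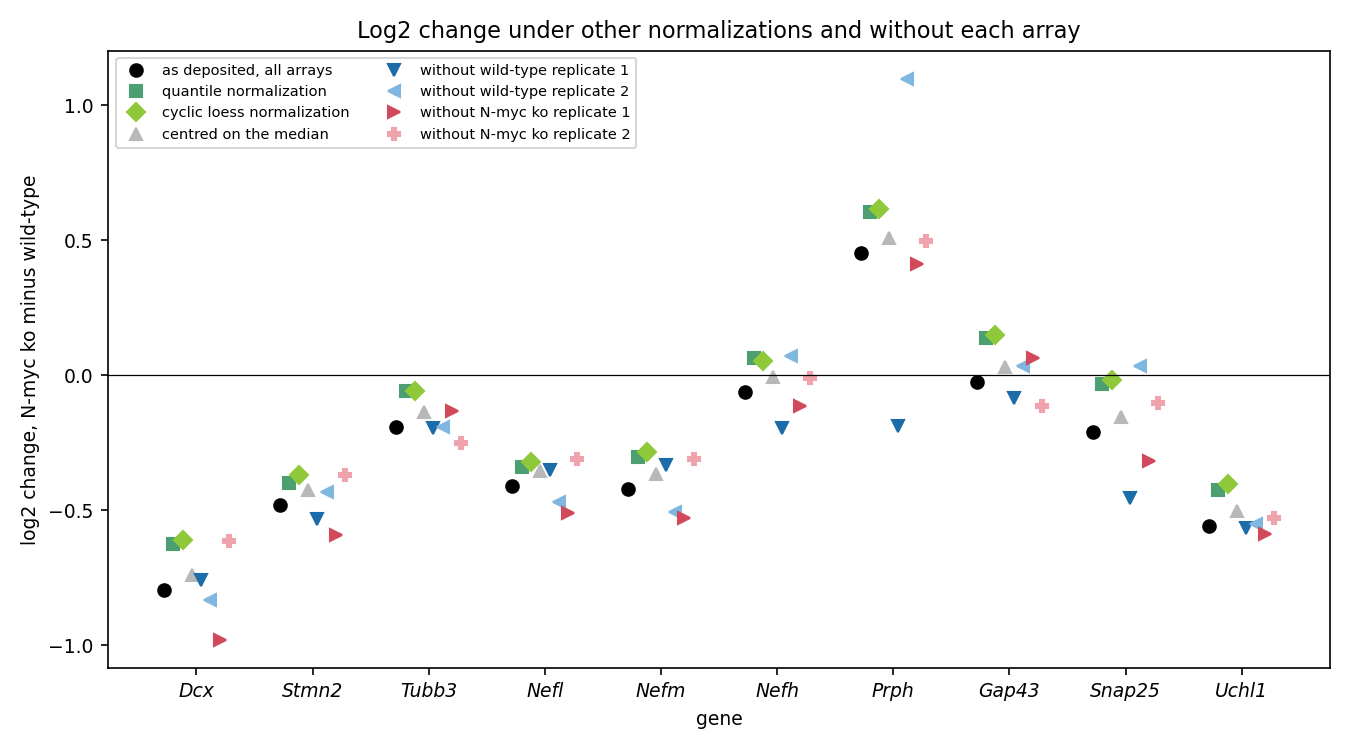
Log2 change, N-myc ko minus wild-type (y axis), of each gene (x axis) on the deposited values, after 3 other scalings and with each array left out. Dcx, Stmn2, Nefl, Nefm, Uchl1 and Tubb3 are below 0 at every point shown, Prph runs from -0.19 to 1.10, and Nefh, Gap43 and Snap25 fall on both sides of 0.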

How the data were processed

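Expression was measured on 4 arrays, 2 per group. The deposited values are log2 expression values that the authors made with RMA and the affy package, per the labels and the series' design text; with versions, array design and genome build not given in the sources used here. No scanner files were used. Symbols of the 10 genes came with their Ensembl IDs in the description of the gene set; the reference gene table (49997 genes) gives an Ensembl ID for 0 genes, so the planned marker and pathway lists were not analysed. The genes, lists and tests were chosen with earlier results of these data known.

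All 23879 genes were fitted with limma 3.58.1 in R 4.3.3 (lmFit, eBayes, two-sided, Benjamini-Hochberg over all genes, called at 0.14), with 2 residual and 4.33 prior degrees of freedom. All 10 genes of the set are named. Relative changes subtract the median change of the 500 genes nearest in mean value, members left out. Alternatives were a limit of 0.05, SAM over 6 label arrangements, other variance priors, scalings and neighbour numbers, dim genes left out, the replicate block, and each array left out. Ranges of differences between genes were added after the data were seen. The fit was tested on simulated data whose planted changes were wider than those of the 10 genes and had no trend with brightness. That test therefore does not cover changes of the size found here. The number of arrays limits the precision.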

Additional observations from a re-analysis of the deposited data

How the results depend on the processing

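Dcx, Stmn2 and Uchl1 kept their calls under all 13 alternatives, Nefl under 9 and Nefm under 8. The 5 called members became 3 (all lower) at an adjusted p under 0.05, beside 8.2% of all genes called lower, and 3 (all lower) after cyclic loess, beside 9.7%. Without 1 array they numbered 3 to 6, with 3 to 5 lower, beside 7.18% to 14.7% of all genes, and 0 to 1 higher. SAM called 58.7% of all genes, and 7 members with 1 of them higher. The median log2 change of the members, -0.31, became -0.18 with quantile normalisation, -0.17 with cyclic loess, -0.26 with centring on the median and -0.41 without Prph (added after the data were seen), and ranged from -0.41 to -0.28 without 1 array. The median relative change, -0.16, ranged from -0.30 to -0.11 without 1 array. Signs turned for uncalled members: Nefh was 0.063 under quantile normalisation and 0.052 under cyclic loess, and Gap43 was 0.14, 0.15 and, with centring, 0.030. Without 1 array the changes ranged from -0.20 to 0.071 for Nefh, from -0.11 to 0.065 for Gap43, from -0.46 to 0.035 for Snap25 and from -0.19 to 1.10 for Prph. The causes were not tested, apart from the stricter limit and the fewer arrays; with 1 array left out, the group of 1 is taken to vary as the other group does. The replicate numbers have no stated origin (the correlation of the deviations of arrays with the same number is 0.12), and the replicate block called 5 members, all lower, beside 21.2% of all genes, with the same median of -0.31.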
